A study of Rattus norvegicus with 24 samples.

Results

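Heart muscle cells treated with doxorubicin after a miR-222-3p mimic were compared head to head with cells treated with doxorubicin after a miR-455-3p mimic, with no control mimic in the contrast. The comparison is defined by its sample labels and holds 6 of the 24 RNA-seq libraries of the series, 3 with each mimic. The cells were neonatal rat ventricular myocytes, a primary culture of Sprague-Dawley rats, and the series asks whether these microRNAs, alone or together, protect such cells from doxorubicin. Both groups received 5 nM of mimic the day after plating, with Lipofectamine RNAiMax as the carrier, and doxorubicin began 48 h later and lasted 24 h. The doxorubicin dose is 4 uM in the sample protocol but 4 mM in the text of the series, and which is right is not settled. The other groups used beside them, also 3 libraries each, were the miR-222 mimic without doxorubicin, the miR-455 mimic without doxorubicin, both mimics (5 nM of each) with doxorubicin, and a negative control mimic with doxorubicin. The mimic was added from outside in each of these groups, so none of them shows the level or effect of the cells' own microRNA. Whether the 3 libraries of a group came from separate cultures or animals is not in the labels; p-values therefore reflect the spread among these libraries only, which may be technical.

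MicroRNAs are short RNAs that guide Argonaute proteins to messenger RNAs, mostly through pairing of the seed near their 5′ end, and lower the stability or translation of those messages. miR-222, encoded beside its family member miR-221, is known for targets that restrain the cell cycle, such as Cdkn1b, and for a role in exercise-induced growth of the heart. miR-455 lies within the collagen gene Col27a1 and is best known from cartilage. Doxorubicin is an anthracycline that poisons type II topoisomerases, breaks DNA and damages mitochondria, and heart muscle is the tissue where its toxicity limits treatment. The sequences are shown because the seed decides which messages each mimic can pair with. They are the rat mature forms from RefSeq (build GRCr8, plus strand), 5′ to 3′, with the seed (bases 2 to 8) in capitals. The makers' own mimic sequences are not given in the labels.
rno-miR-222-3p: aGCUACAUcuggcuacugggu
rno-miR-221-3p: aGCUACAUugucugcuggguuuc
rno-miR-455-3p: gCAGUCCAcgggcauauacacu
rno-miR-222-3p, of 21 bases, lies at chrX:6022682-6022702, and rno-miR-221-3p, which has the same seed, at chrX:6023246-6023268. rno-miR-455-3p, of 22 bases, lies at chr5:81704881-81704902 and has another seed; the table held no further mature rat microRNA with either seed.

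The miR-222 libraries with doxorubicin held 20011441 to 24428728 counts and the miR-455 libraries with doxorubicin 21400789 to 24175043. Cardiomyocyte markers were abundant in both groups: cardiac troponin T (Tnnt2) averaged 5344 CPM (counts scaled to library size) with miR-222 and 9071 with miR-455, and Myh6, the alpha myosin heavy chain, 7623 and 6449. The 3 miR-455 libraries lay close to each other, with a chi-square per degree of freedom between their counts of 7.02 to 8.68, and the 3 miR-222 libraries farther apart, at 43.8 to 77.2. Mitochondrially encoded transcripts took 10.6% ± 2.04 of the counts with miR-222 and 14.6% ± 0.882 with miR-455 (SD, n = 3 each). The groups did not overlap in that share, and the exact two-sided permutation p was 0.1, the smallest that 3 against 3 libraries allow. The 4 libraries of the series that detected the fewest genes (10 or more counts each) are called gene-poor below and were in neither of these groups.

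With doxorubicin, 511 genes differed between miR-222 and miR-455, or 3.57% of the 14303 genes tested. Of these, 307 (2.15% of all tested) were higher with miR-222 and 204 (1.43%) lower. The log2 fold change was at least 1 in size for 244 of the higher and 150 of the lower genes. A gene is said to rise, fall or differ where edgeR's quasi-likelihood F test gave a Benjamini-Hochberg adjusted p under 0.05 over all genes tested, and values in parentheses or after "at" are log2 fold changes, miR-222 over miR-455 with doxorubicin, ± SE from 3 libraries against 3. The median over all genes tested was -0.03. The count depended on the libraries: it was 322, 257 and 295 without replicate 1, 2 or 3 of miR-222, and 231, 243 and 236 without replicate 1, 2 or 3 of miR-455. It was 912 with DESeq2's Wald test (4.14% higher and 2.58% lower), 1829 in an edgeR fit without the 4 gene-poor libraries (7.48% and 5.17%), and 3416 in an edgeR fit of only the 6 libraries compared (14.3% and 11.2%). These 3 settings are named below for some of the calls they change, not for all. A gene or list said not to pass may therefore pass under 1 or more of them. In all 6 fits that left out 1 library, 114 of the higher and 79 of the lower genes were called. For comparison, 19.4% of all genes tested had every miR-222 library above every miR-455 library and 23.2% had every one below.

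The 10 leading genes in each direction are those with the largest log2 fold change among called genes with a symbol, a mean of 5 CPM or more on the higher side and separate ranges of the 3 libraries. Flot2, Krt7 and Gna12 had the largest decreases with miR-222. Flot2, a scaffold protein of lipid rafts, had 22.3, 36.1 and 25.1 CPM in the miR-222 libraries and 317, 298 and 295 CPM in the miR-455 libraries. Gna12, the alpha subunit of a heterotrimeric G protein, had 48.0, 50.6 and 51.1 CPM with miR-222 and 377, 350 and 346 CPM with miR-455. In both genes each group was tight and the miR-222 libraries were all far below the others. The changes were -3.45 ± 0.38 for Flot2 (edgeR, Benjamini-Hochberg adjusted p = 2.56e-05) and -2.84 ± 0.34 for Gna12 (4.71e-05). With the control mimic and doxorubicin, Flot2 had 327, 311 and 343 CPM and Gna12 342, 361 and 399 CPM, so in both genes the miR-455 libraries sat near the control level and the miR-222 libraries below it. Ackr4, an atypical receptor that scavenges chemokines, showed the same order: 6.38, 6.00 and 4.76 CPM with miR-222, 37.7, 36.6 and 35.6 CPM with miR-455, and 31.3, 35.0 and 33.8 CPM with the control mimic (-2.68 ± 0.35). Krt7, a simple-epithelium keratin, had 4.44, 6.93 and 3.58 CPM with miR-222 and 56.0, 47.9 and 48.4 CPM with miR-455 (-3.35 ± 0.47).

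Nppb, which encodes the B-type natriuretic peptide that strained heart muscle secretes, had 351, 465 and 246 CPM with miR-222 and 2130, 2140 and 1730 CPM with miR-455 (-2.50 ± 0.38; edgeR, Benjamini-Hochberg adjusted p = 0.000528). Its miR-455 level was also above that of all 3 control mimic libraries, at 561, 1050 and 613 CPM. A pair of nuclear genes for mitochondrial proteins was among the leading ones that fell: Coa5, an assembly factor of cytochrome c oxidase (-2.80 ± 0.33), and Mrpl36, a protein of the mitochondrial ribosome (-2.63 ± 0.37). Coa5 has 1 annotated pseudogene and 4 of the 6 deposited values of Mrpl36 were not whole, so reads of both may have been shared with other copies or transcripts. Tmem35a, a chaperone of nicotinic receptors with 1 annotated pseudogene, was at -2.65 ± 0.46. Tox, a nuclear HMG-box protein, was at -2.60 ± 0.56 and was no longer called without replicate 2 of miR-222 (-2.53, edgeR adjusted p = 0.0653). Pln, phospholamban, which restrains the calcium pump of the sarcoplasmic reticulum, had 24.0, 72.9 and 25.0 CPM with miR-222 and 245, 234 and 208 CPM with miR-455. The groups were apart, but its change of -2.49 ± 0.64 was called in 1 of the 6 fits that left out a library, with an edgeR adjusted p of up to 0.167; it held only without replicate 2 of miR-222, the highest of its group.

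Gdf10, Slc1a1, Cox6a1 and Igfbp5 had the largest increases with miR-222 among the leading genes, and the muscle genes Kcnh2 and Smyd1 were also among the 10. Igfbp5, a secreted binding protein of insulin-like growth factors, had 112, 80.1 and 106 CPM with miR-222 and 6.42, 8.18 and 7.94 CPM with miR-455 (3.72 ± 0.54; edgeR, Benjamini-Hochberg adjusted p = 0.000307). Its control mimic libraries had 13.4, 15.1 and 14.7 CPM, above every miR-455 library and below every miR-222 library. Gdf10, a ligand of the TGF-beta superfamily, had 3.69, 23.4 and 13.1 CPM with miR-222 and 0.205, 0.349 and 0.272 CPM with miR-455 (5.57 ± 0.92). Kcnh2, the channel of the rapid delayed rectifier potassium current that ends the cardiac action potential, had 35.9, 64.8 and 31.1 CPM with miR-222 and 4.77, 4.04 and 4.13 CPM with miR-455 (3.35 ± 0.47, adjusted p = 0.000196). Smyd1, a muscle methyltransferase needed to build the sarcomere, had 84.0, 99.8 and 62.9 CPM with miR-222 and 10.3, 6.88 and 8.65 CPM with miR-455 (3.26 ± 0.54). For both muscle genes the control mimic libraries lay between the groups: Kcnh2 had 10.4, 26.1 and 20.3 CPM there and Smyd1 20.5, 45.3 and 36.8 CPM. Gucy1b1, a subunit of the soluble guanylate cyclase that senses nitric oxide, had 27.2, 51.0 and 35.2 CPM with miR-222 and 3.39, 2.89 and 3.70 CPM with miR-455 (3.50 ± 0.48).

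Cox6a1, the widely expressed isoform of a cytochrome c oxidase subunit, had 845, 1310 and 1290 CPM with miR-222 and 68.9, 82.5 and 82.6 CPM with miR-455 (3.88 ± 0.49; edgeR, Benjamini-Hochberg adjusted p = 8.21e-05). Its control mimic libraries were at 452, 596 and 1130 CPM, so it was the miR-455 libraries that lay outside the rest; Cox6a1 has 2 annotated pseudogenes, which could take or give reads. Colgalt2, which adds sugars to collagen, was at 3.37 ± 0.54 and mrpl9, a mitochondrial ribosome protein, at 3.00 ± 0.49. Slc1a1, a glutamate and cysteine transporter, was at 4.11 ± 0.85 and lost its call without miR-455 replicate 1 (3.90, edgeR adjusted p = 0.0595) or replicate 3 (4.07, 0.0504). Efnb3, a membrane ligand of Eph receptors, was at 3.44 ± 0.76 and lost its call without any 1 of the 3 miR-455 libraries (3.31, 3.54 and 3.47, edgeR adjusted p = 0.0797, 0.0606 and 0.0661). Of the 20 leading genes, 10 in each direction, 16 were called in every fit that left out 1 library and under every other setting tried; the exceptions were Slc1a1, Efnb3, Tox and Pln.

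**Figure D1:**
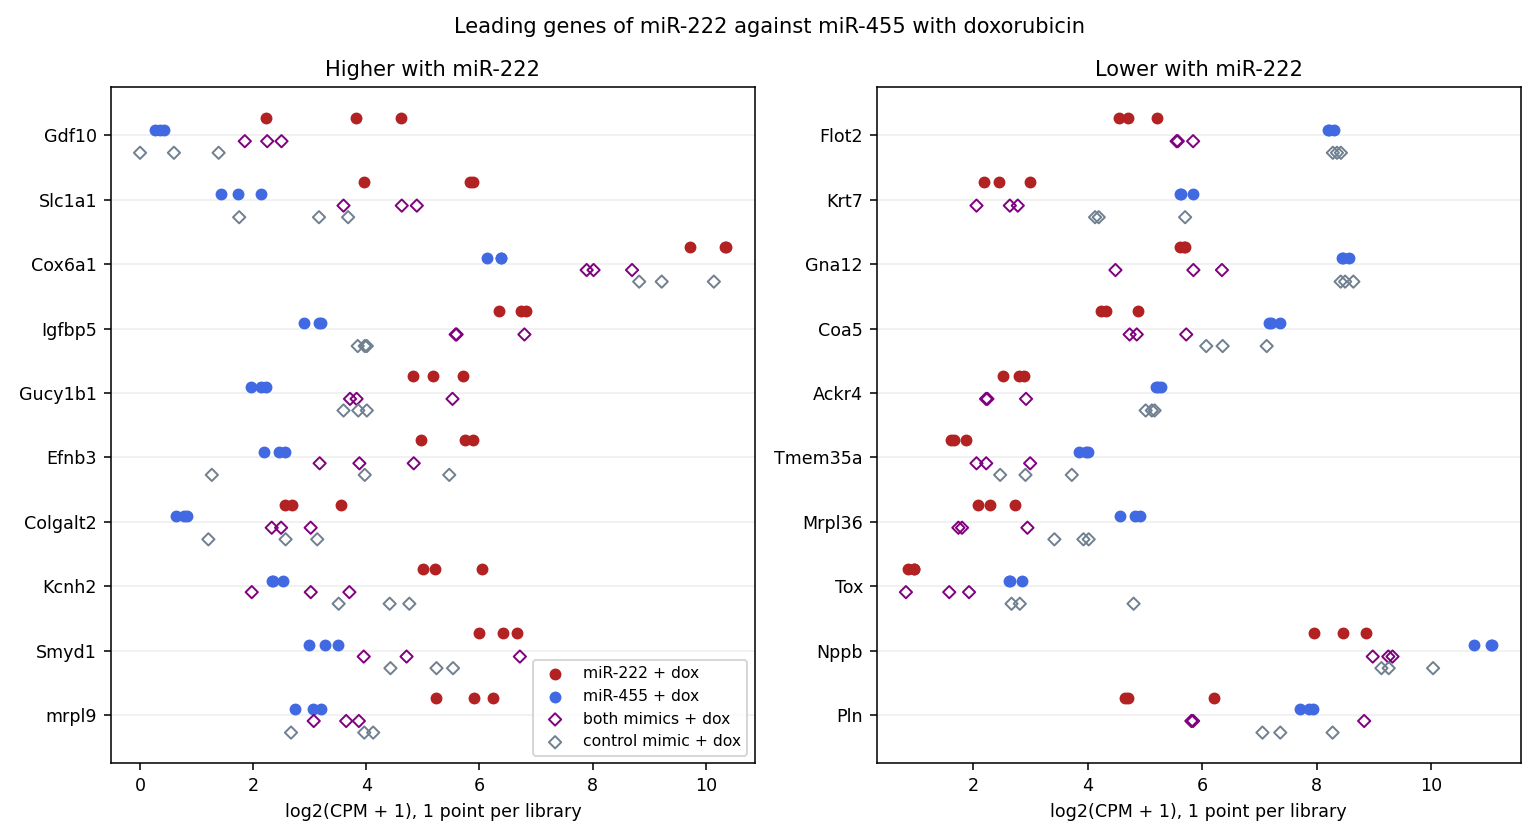
Levels of the 10 leading genes that were higher (left) and the 10 that were lower (right) with miR-222 than with miR-455, all with doxorubicin, as log2(CPM + 1) with 1 point per library. Filled points are the groups compared and open diamonds the libraries with both mimics and with the control mimic; for Flot2, Gna12 and Ackr4 the miR-455 points lie close to the control points, and for Igfbp5 all 3 miR-222 points lie above the control points.

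The head-to-head difference was also read in 32 gene lists with 581 genes tested. Over all genes 2.15% were higher and 1.43% lower. Some lists had a larger share: 2 of 14 heat shock genes and 2 of 17 NRF2 targets were higher, and 2 of 16 fibroblast and matrix markers lower. In other lists no gene was called. Lists were not tested as sets. No list had more than 2 genes called in 1 direction. The most was 3 with DESeq2's test, 6 without the 4 gene-poor libraries and 10 in the fit of the 6 libraries alone, where larger shares of all genes were called as well. The sarcomere list and the list of calcium handling and ion channels held the largest called changes, Smyd1 and Kcnh2. In the sarcomere list 2 of 23 genes rose and 2 fell, with a median of -0.28. Of the same 23, 3 were higher and 6 lower without the 4 gene-poor libraries, beside 7.48% and 5.17% of all genes there, and 3 and 7 in the fit of the 6 libraries alone, beside 14.3% and 11.2%. Ldb3, a Z-disc protein that binds alpha-actinin, had 68.6, 89.8 and 57.8 CPM with miR-222 and 301, 291 and 281 CPM with miR-455 (-2.01 ± 0.27; edgeR, Benjamini-Hochberg adjusted p = 0.000111). The regulatory light chains of the ventricle and the atrium went opposite ways. Myl2, the ventricular form, had 1840, 2450 and 1800 CPM with miR-222 and 4100, 4360 and 4280 CPM with miR-455 (-1.06 ± 0.22, adjusted p = 0.00665; 0.0508 without miR-222 replicate 3). Myl7, the atrial form, had 112, 179 and 119 CPM with miR-222 and 62.7, 70.5 and 67.4 CPM with miR-455 (1.03 ± 0.22, adjusted p = 0.00996). Myl7 lost its call without miR-222 replicate 2 (0.0938) or without miR-455 replicate 1 (0.0653) or 3 (0.0511).

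The heavy chains did not pass the test, though Myh7 did in the fit of the 6 libraries alone (edgeR adjusted p = 0.0414). Myh7, the slow beta form, had 352, 1480 and 900 CPM with miR-222 and 2750, 2150 and 2270 CPM with miR-455 (-1.39 ± 0.52; edgeR, Benjamini-Hochberg adjusted p = 0.185), and Myh6 was at 0.24 ± 0.36; all 6 deposited values of each were not whole. Of 14 cardiac stress genes 1 fell, Nppb, and none rose. This count was among those that moved with the setting. With DESeq2's test and also without the 4 gene-poor libraries 1 was higher and 3 lower. In the fit of the 6 libraries alone 1 was higher and 5 lower of 13. Of all genes 4.14% were higher and 2.58% lower with DESeq2's test. The shares were 7.48% and 5.17% without the 4 gene-poor libraries, and 14.3% and 11.2% in the 6 libraries alone. Nppa, the atrial natriuretic peptide, had 8820, 13600 and 13100 CPM with miR-222 and 37400, 40700 and 38800 CPM with miR-455. The groups of Nppa did not overlap, yet its change of -1.72 ± 0.48 missed the threshold (edgeR adjusted p = 0.0534). It passed with DESeq2's test (adjusted p = 0.00792), in the edgeR fits of the 6 libraries alone (0.000301) and without the 4 gene-poor libraries (0.00445), and without mitochondrially encoded transcripts (0.0484). Csrp3, a stretch-linked Z-disc protein, averaged 37.2 CPM with miR-222 and 173 CPM with miR-455 and missed it as well (-2.22 ± 0.63; 0.0536), passing under the first 3 of those settings (adjusted p = 0.00698, 0.00145 and 0.00659). Of 28 calcium handling and ion channel genes, Kcnh2 rose, Pln fell and 26 did not pass; the list's median was 0.45. None of 16 cardiac transcription factors passed, with a median of 0.17.

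The reported targets of the 2 microRNAs had medians of opposite sign, each lower where its own mimic was given, and 1 gene of 38 passed the test. Without doxorubicin the medians were nearer to 0, at -0.13 for the miR-222 and 0.08 for the miR-455 targets, beside -0.007 for all genes. With doxorubicin 2 of the miR-222 targets were lower with DESeq2's test, beside 2.58% of all genes. In the fit of the 6 libraries alone 2 were higher and 5 lower, beside 14.3% and 11.2%. Without the 4 gene-poor libraries 1 was higher and 2 lower, beside 7.48% and 5.17%. Of 20 reported miR-222 targets 12 were below 0 and 8 above, with a median of -0.34. Hipk1, a nuclear kinase and reported target, had 48.9, 60.4 and 58.5 CPM with miR-222 and 115, 106 and 116 CPM with miR-455 (-1.0 ± 0.15; edgeR, Benjamini-Hochberg adjusted p = 0.000528). The control mimic libraries, at 80.8, 93.5 and 96.6 CPM, were above every miR-222 library and below every miR-455 library. Cdkn1b, the cyclin-dependent kinase inhibitor p27 and the best known target of the family, had 7.89, 17.4 and 11.6 CPM with miR-222 and 26.6, 27.6 and 24.7 CPM with miR-455. Its change of -1.10 ± 0.33 did not pass (edgeR adjusted p = 0.0761), but did with DESeq2's test (0.0381), in the edgeR fit of the 6 libraries alone (0.0137) and in that without the 4 gene-poor libraries (0.0137). The control mimic libraries of Cdkn1b, at 9.39, 18 and 19.8 CPM, overlapped the miR-222 libraries. Hmbox1, a homeobox factor reported as a target, had 2.27, 2.31 and 2.01 CPM with miR-222 and 3.75, 2.59 and 2.77 CPM with miR-455 (-0.47 ± 0.46). Of 18 reported miR-455 targets 16 were above 0 and 2 below, with a median of 0.36, and none passed. Without the 4 gene-poor libraries 1 was higher, beside 7.48% of all genes. In the fit of the 6 libraries alone 4 were higher, beside 14.3%. Ei24, a p53-induced protein of the endoplasmic reticulum, had 113, 111 and 104 CPM with miR-222 and 85.2, 92.2 and 78.1 CPM with miR-455 (0.36 ± 0.17, edgeR adjusted p = 0.35). It passed in the edgeR fit of the 6 libraries alone (adjusted p = 0.0202) and in that without the 4 gene-poor libraries (0.0459). Without doxorubicin Ei24 was the 1 reported miR-455 target called, higher with miR-222 (0.67 ± 0.17, edgeR adjusted p = 0.0401). All 3 control mimic libraries of Ei24, which has 1 annotated pseudogene, were higher than both groups, at 179, 155 and 142 CPM.

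Few genes of the DNA damage response passed the test. Of 26 p53 targets 2 rose, Perp and Ccng1, and none fell, with a median of -0.04. Over all genes 2.15% rose and 1.43% fell. Perp, a membrane protein of p53-driven death, had 55.7, 86.8 and 68.1 CPM with miR-222 and 32.0, 33.1 and 33.2 CPM with miR-455 (1.10 ± 0.26). Ccng1, cyclin G, had 1940, 3110 and 2520 CPM with miR-222 and 1110, 1060 and 986 CPM with miR-455 (1.26 ± 0.32). Both were apart in every library, but Perp was called in 2 and Ccng1 in 1 of the 6 fits that left out a library (edgeR, Benjamini-Hochberg adjusted p up to 0.116 and 0.164). The arrest gene Cdkn1a, at 745, 493 and 734 CPM with miR-222 and 503, 499 and 488 CPM with miR-455, overlapped between the groups (0.40 ± 0.57), and Mdm2, the ligase that degrades p53, was at -0.39 ± 0.44. Mdm2 passed in the edgeR fit of the 6 libraries alone (adjusted p = 0.0309). None of 25 DNA repair, 21 apoptosis and 31 cell cycle genes passed. Of 15 cell cycle inhibitors and G1 cyclins Ccnd1 fell: cyclin D1 had 250, 188 and 176 CPM with miR-222 and 526, 497 and 532 CPM with miR-455 (-1.34 ± 0.23; edgeR adjusted p = 0.00167). Its control mimic libraries, at 386, 505 and 505 CPM, were above every miR-222 library. Of 13 doxorubicin targets and transporters Top1mt, the mitochondrial type I topoisomerase, was called lower (-1.04 ± 0.27), in none of the 6 fits that left out a library (edgeR adjusted p up to 0.192).

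**Figure D2:**
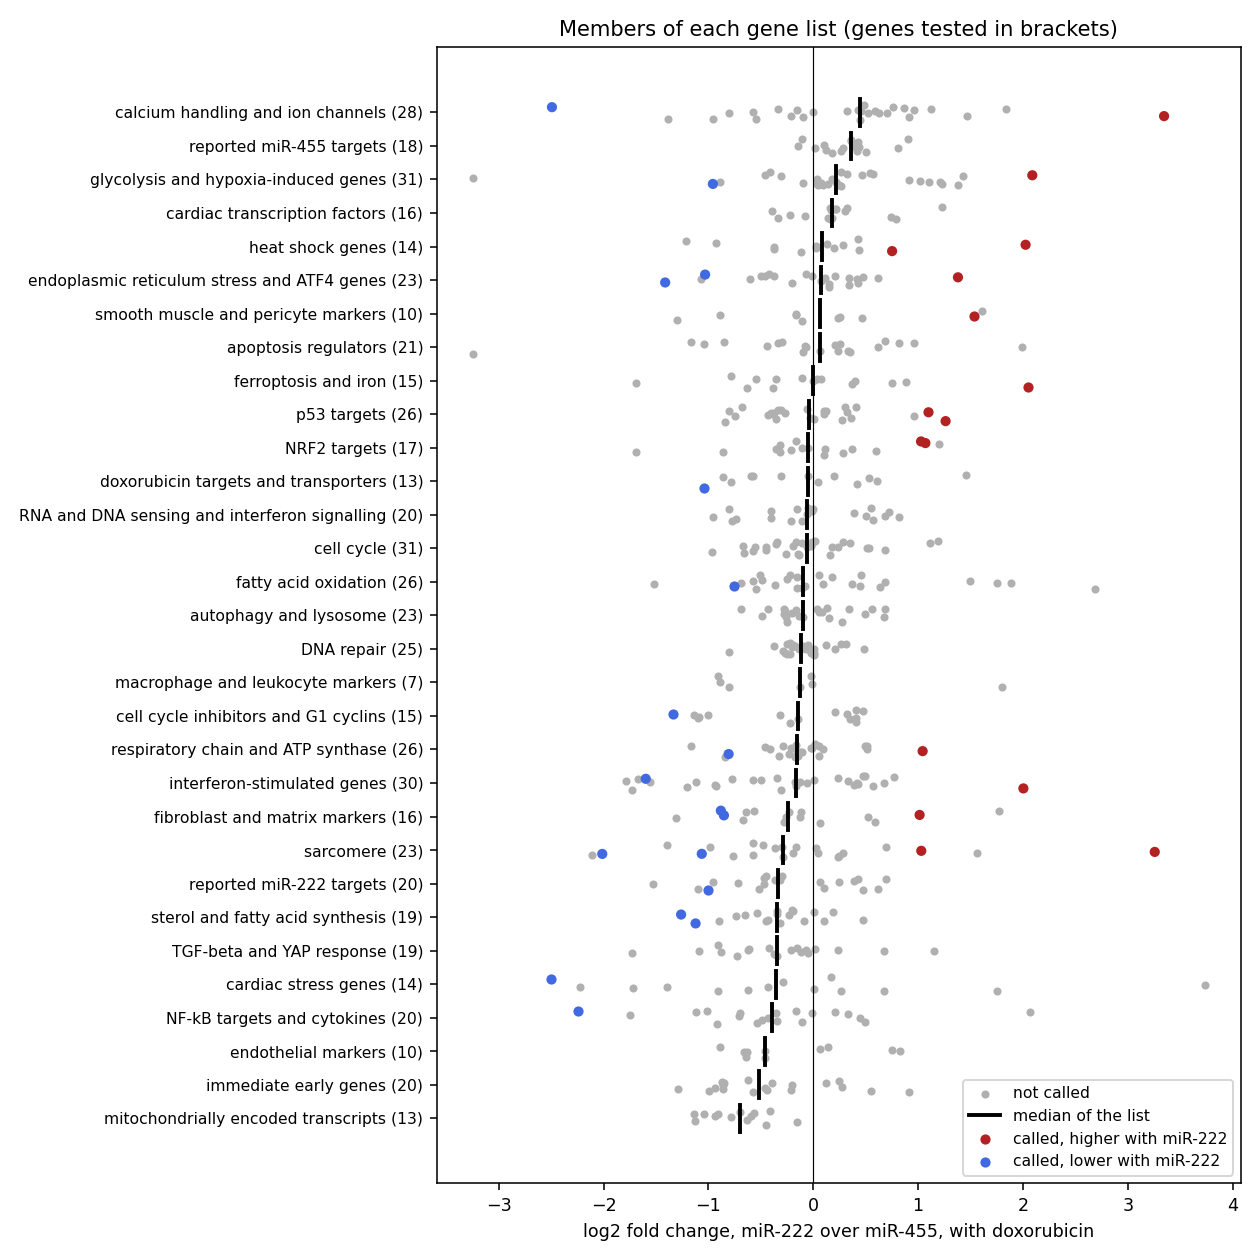
Log2 fold change, miR-222 over miR-455 with doxorubicin, of each member of 31 gene lists, with the number of genes tested in brackets and the median of each list as a black bar; the red cell list, with 1 gene tested, is not drawn. Calls are those of the edgeR fit of all 24 libraries. Most members are grey, not called, and the called ones are single genes such as Kcnh2 at 3.35, Smyd1 at 3.26 and Nppb at -2.50. All 13 mitochondrially encoded transcripts lie below 0 and none was called in that fit.

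Few genes of fuel use passed, the lactate carrier with the largest difference. Slc16a1, the plasma membrane carrier of lactate and pyruvate, had 278, 209 and 228 CPM with miR-222 and 56.1, 51.9 and 60.3 CPM with miR-455 (2.09 ± 0.26; edgeR, Benjamini-Hochberg adjusted p = 6.95e-05). Its control mimic libraries, at 118, 223 and 153 CPM, were above every miR-455 library, and 1 of them was inside the miR-222 range. Pfkp, the platelet form of phosphofructokinase, had 230, 204 and 161 CPM with miR-222 and 410, 386 and 358 CPM with miR-455 (-0.96 ± 0.26, edgeR adjusted p = 0.0445), and its call was lost in all 6 fits that left out a library. These were the 2 calls among 31 glycolysis and hypoxia-induced genes, whose median was 0.22. Bnip3, a hypoxia-induced mitophagy receptor, was at -3.24 ± 0.93 and did not pass (edgeR adjusted p = 0.0571), but did with DESeq2's test (0.00229), in the edgeR fit of the 6 libraries alone (0.0019) and in that without the 4 gene-poor libraries (0.0237). Of 26 nuclear genes of the respiratory chain, Ndufs3, a core subunit of complex I, rose (1.04 ± 0.26) and Ndufa10, an accessory subunit, fell (-0.81 ± 0.19). Sdha (0.51 ± 0.17) and Sdhd (-0.84 ± 0.25) did not pass, but did with DESeq2's test (adjusted p = 0.0123 and 0.0297). They also passed by edgeR in the 6 libraries alone (0.00388 and 0.00145) and without the 4 gene-poor libraries (0.0213 and 0.0178). Ndufs3 was called in 1 and Ndufa10 in none of the 6 fits that left out a library, and all 6 deposited values of Ndufa10 were not whole. Of 26 fatty acid oxidation genes Etfa, an electron carrier from that pathway, fell (-0.76 ± 0.20), also in none of those 6 fits.

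The 13 mitochondrially encoded transcripts were all below 0, from -1.13 to -0.15 with a median of -0.70, and none passed. In the fit of the 6 libraries alone 7 of the 13 were called lower, beside 11.2% of all genes. None was called with DESeq2's test or without the 4 gene-poor libraries. In 10 of the 13 every miR-222 library lay below every miR-455 library, beside 23.2% of all genes. They are transcribed together from the mitochondrial genome and make up the share of counts given above. Without doxorubicin their median was 0.64.

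Slc40a1, ferroportin, the cell's iron exporter, rose with miR-222: it had 32.6, 30.8 and 42.7 CPM with miR-222 and 9.04, 9.42 and 7.18 CPM with miR-455 (2.05 ± 0.37; edgeR, Benjamini-Hochberg adjusted p = 0.00241). The control mimic libraries, at 21.7, 9.64 and 13.8 CPM, were between the groups. It was the 1 call of 15 ferroptosis and iron genes. Me1, the cytosolic malic enzyme that makes NADPH, had 402, 412 and 427 CPM with miR-222 and 206, 196 and 190 CPM with miR-455 (1.07 ± 0.19, edgeR adjusted p = 0.00209). Me1 and Gsta4, a glutathione transferase for lipid peroxidation products (1.03 ± 0.27), were the 2 of 17 NRF2 targets that rose, beside 2.15% of all genes. Gsta4 has 3 annotated pseudogenes and was called in 1 of the 6 fits that left out a library. None of 23 autophagy and lysosome genes passed.

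Of 23 endoplasmic reticulum stress and ATF4 genes 2 fell and 1 rose, beside 1.43% and 2.15% of all genes. Pdia6, a disulfide isomerase, had 176, 125 and 151 CPM with miR-222 and 392, 415 and 394 CPM with miR-455 (-1.41 ± 0.26; edgeR, Benjamini-Hochberg adjusted p = 0.00282). Canx, calnexin, the lectin chaperone of new glycoproteins, had 924, 948 and 941 CPM with miR-222 and 2000, 1960 and 1790 CPM with miR-455 (-1.03 ± 0.23, adjusted p = 0.0135). Canx kept its call in 1 of the 6 fits that left out a library (adjusted p up to 0.0623), and Pdia6 in all 6. Vldlr, a lipoprotein receptor, was the 1 that rose (1.38 ± 0.37), called in none of the 6. Of 14 heat shock genes Hspb7, a small heat shock protein of heart muscle, rose (2.02 ± 0.52), as did Hsp90ab1 (0.75 ± 0.18), beside 2.15% of all genes. Hsp90ab1 has 23 annotated pseudogenes. Each of the 2 was called in 1 of the 6 fits. Of 19 sterol and fatty acid synthesis genes Scd2, a desaturase (-1.26 ± 0.28), and Hmgcs1, a sterol synthesis enzyme (-1.12 ± 0.30), fell, beside 1.43% of all genes. Scd2 kept its call in 3 and Hmgcs1 in none of the 6 fits (edgeR adjusted p up to 0.0795 and 0.16).

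Of 30 interferon-stimulated genes 1 rose and 1 fell, with a median of -0.17. Without the 4 gene-poor libraries 1 was higher and 4 lower, beside 7.48% and 5.17% of all genes, and in the fit of the 6 libraries alone 3 were higher and 10 lower, beside 14.3% and 11.2%. Irf7, the transcription factor that amplifies type I interferon, had 13.2, 13.9 and 12.6 CPM with miR-222 and 39.8, 37.2 and 43.3 CPM with miR-455 (-1.60 ± 0.32; edgeR, Benjamini-Hochberg adjusted p = 0.00585). The control mimic libraries, at 35.7, 36.3 and 42.0 CPM, lay with miR-455. Rsad2, the antiviral enzyme viperin, had 9.73, 28.2 and 13.9 CPM with miR-222 and 2.36, 5.93 and 4.62 CPM with miR-455 (2.00 ± 0.53, adjusted p = 0.0389), and kept its call in 1 of the 6 fits that left out a library. None of 20 genes of RNA and DNA sensing passed. Il1rl1, the receptor of interleukin-33 that strained heart cells also release in soluble form, had 49.7, 154 and 53.8 CPM with miR-222 and 401, 424 and 393 CPM with miR-455 (-2.24 ± 0.46, adjusted p = 0.0062). It was the 1 of 20 NF-kB target and cytokine genes called, and the list's median was -0.39. None of 20 immediate early genes (median -0.52) and none of 19 TGF-beta and YAP response genes (median -0.34) passed. Of the immediate early genes 1 was lower with DESeq2's test, 1 without the 4 gene-poor libraries and 6 in the 6 libraries alone. None was higher. In 12 of them every miR-222 library lay below every miR-455 library and in 1 above, beside 23.2% and 19.4% of all genes. In those settings 1, 2 and 4 TGF-beta and YAP response genes were lower and 0, 1 and 1 higher. Of all genes 2.58%, 5.17% and 11.2% were lower and 4.14%, 7.48% and 14.3% higher.

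Among the markers of other cell types, called genes were found in the fibroblast and matrix list and in the smooth muscle and pericyte list. In bulk RNA, fewer cells of a type and less RNA per cell cannot be told apart. Of 16 fibroblast and matrix markers Dcn, the proteoglycan decorin, rose (1.01 ± 0.25). Fn1, fibronectin (-0.88 ± 0.21), and Timp1, a metalloproteinase inhibitor (-0.85 ± 0.22), fell. Over all genes 2.15% rose and 1.43% fell. By edgeR Dcn, Fn1 and Timp1 were called in 1, 1 and none of the 6 fits that left out a library. With DESeq2's test 2 of the 16 were higher and 2 lower, beside 4.14% and 2.58% of all genes. Without the 4 gene-poor libraries 2 were higher and 3 lower, beside 7.48% and 5.17%. In the fit of the 6 libraries alone 3 were higher and 5 lower, beside 14.3% and 11.2%. The summed level of the list ran from 40910 to 46660 CPM with miR-222 and from 51630 to 53970 CPM with miR-455. Of 10 smooth muscle and pericyte markers Abcc9, a subunit of ATP-sensitive potassium channels, rose: it had 309, 411 and 292 CPM with miR-222 and 132, 111 and 107 CPM with miR-455 (1.53 ± 0.33; edgeR, Benjamini-Hochberg adjusted p = 0.0101). It lost its call without miR-222 replicate 2 (edgeR adjusted p = 0.0611) or miR-455 replicate 2 (0.0622) or 3 (0.0653). Which cells its RNA came from was not tested. Of the 10 markers in the list 5 were above 0 and 5 below, with a median of 0.07. The summed level of that list was 1634 to 3220 CPM with miR-222 and 1717 to 2188 CPM with miR-455. None of 10 endothelial markers passed, and their sum was 167.6 to 220.8 CPM with miR-222 and 258.0 to 270.5 CPM with miR-455, most of it Eng; Cdh5 averaged 0.321 and 0.501 CPM, and Emcn was at 0 in all 6 libraries. None of 7 macrophage and leukocyte markers passed, with sums of 13.25 to 14.74 CPM and 14.19 to 17.09 CPM, and Cd163 was at 0 in all 6 libraries. The 1 red cell marker tested, Slc4a1, was at 0.33 ± 0.79. The sarcomere list summed to 31360 to 53240 CPM with miR-222 and 49940 to 54700 CPM with miR-455. Whether these sums have a part in the differences of single genes was not tested.

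The same contrast without doxorubicin uses 6 other libraries, 3 with miR-222 and 3 with miR-455, and shows whether the difference between the mimics was there without the drug. It called 329 genes (2.30% of those tested), 169 higher with miR-222 (1.18%) and 160 lower (1.12%). The count was 720 with DESeq2's test, 1584 without the 4 gene-poor libraries and 544 in an edgeR fit of only these 6 libraries. Of the 307 genes higher with doxorubicin 291 (94.8%) had the same sign without it, and 92 were called there in the same direction. Of the 204 lower genes 199 (97.5%) had the same sign, and 86 were called. None was called in the opposite direction. Over all genes tested the share with the same sign was 68.7% of those above 0 and 68.5% of those below. The 178 genes called in both were 34.8% of the calls with doxorubicin and 54.1% of those without. The median log2 fold change of the higher genes was 1.41 with doxorubicin and 0.80 without, and that of the lower genes -1.21 and -0.82; the genes were selected on the first value of each pair, so the sizes are not compared.

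Without doxorubicin replicate 3 of miR-222 and replicate 2 of miR-455 stood apart from the others of their group, with a chi-square per degree of freedom of 109 and 110 for the first and 188 and 195 for the second, against 5.26 and 6.31 for the other pairs. Without replicate 3 of miR-222, 258 genes were called and 289 of 307 and 198 of 204 had the same sign; without replicate 2 of miR-455, 399 were called and 285 and 198 had the same sign. Leaving out a library of the close pairs gave 108 to 121 calls: 112 and 108 without replicate 1 or 2 of miR-222, and 110 and 121 without replicate 1 or 3 of miR-455. The labels do not say what the close pairs share.

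**Figure D3:**
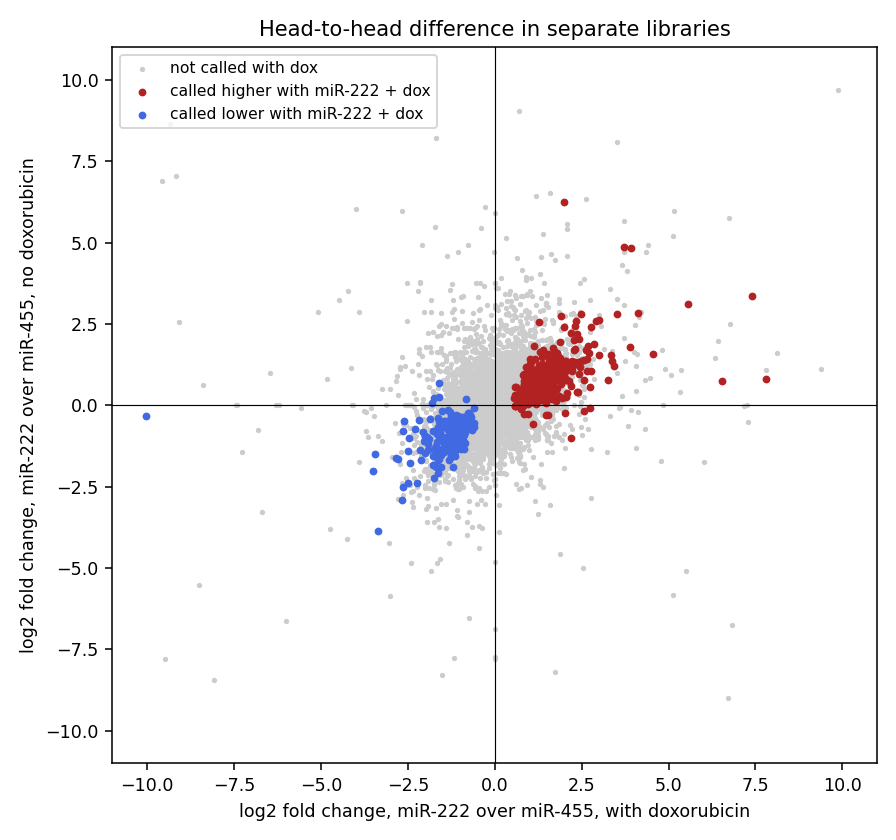
Log2 fold change of each gene tested, miR-222 over miR-455, with doxorubicin (horizontal) and without (vertical), from libraries that are not shared. Genes called with doxorubicin are in colour: 291 of the 307 red ones lie above 0 on the vertical axis and 199 of the 204 blue ones below 0.

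Some genes were called in the same direction with and without the drug. Nppb had 260, 258 and 205 CPM with miR-222 and 949, 1400 and 1400 CPM with miR-455 without doxorubicin, and its log2 fold change was -2.50 with the drug and -2.38 ± 0.38 without. Hipk1 was at -0.86 ± 0.15 without the drug, Krt7 at -3.85 ± 0.48, Ackr4 at -2.91 ± 0.37, Mrpl36 at -2.51 ± 0.37, Me1 at 1.03 ± 0.19, Pdia6 at -1.33 ± 0.26 and Il1rl1 at -2.37 ± 0.46. Igfbp5 was at 3.72 with the drug and 4.86 ± 0.57 without. These 9 genes were called in both contrasts. Other genes were called with doxorubicin alone. Smyd1 had 109, 103 and 130 CPM with miR-222 and 41.7, 108 and 51.2 CPM with miR-455 without doxorubicin (0.77 ± 0.49). Slc40a1 had 34.9, 33.0 and 18.3 CPM and 29.7, 15.7 and 27.1 CPM (0.25 ± 0.36). Slc16a1 had 247, 254 and 310 CPM with miR-222 and 180, 241 and 198 CPM with miR-455 (0.39 ± 0.25). For Smyd1, Slc40a1 and Slc16a1 every miR-455 library with doxorubicin was below every miR-455 library without it, while the miR-222 ranges with and without doxorubicin overlapped for Slc40a1 and Slc16a1 and lay apart for Smyd1.

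A call in 1 contrast and not in the other does not show a difference, so the difference between the contrasts was tested for each gene. No gene passed in edgeR's test of that interaction, 525 had an unadjusted p under 0.05, and DESeq2's Wald test called 42. The fit of the 12 libraries alone called 87, and that without the 4 gene-poor libraries 58. The smallest p among the named genes was that of Rsad2: its difference between the mimics was 2.00 with doxorubicin and 6.24 ± 0.68 without, a difference of -4.23 ± 0.81 (edgeR, unadjusted p = 3.92e-05, Benjamini-Hochberg adjusted p = 0.154; DESeq2 0.000164; range over the alternatives 0.000164 to 0.484). Without doxorubicin Rsad2 had 19.8, 17.9 and 8.03 CPM with miR-222 and 0.229, 0.0692 and 0.307 CPM with miR-455. Irf7 was at -1.60 with doxorubicin and 0.68 ± 0.33 without, a difference of -2.28 ± 0.46 (edgeR adjusted p = 0.154, DESeq2 0.000311; range 0.000311 to 0.678). For Irf7 the sign itself differed: without doxorubicin it had 3.19, 2.70 and 4.36 CPM with miR-222 and 1.47, 1.21 and 3.73 CPM with miR-455, all below its levels with the drug. Slc16a1 differed by 1.70 ± 0.36 between the contrasts (edgeR adjusted p = 0.19, DESeq2 0.00651; range 0.00651 to 0.77) and Flot2 by -1.94 ± 0.50 (edgeR adjusted p = 0.519, DESeq2 0.0647; range 0.0318 to 1.0).

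In the fit of all 24 libraries the lists of interferon-stimulated and cardiac stress genes differed most in edgeR calls between the contrasts. Both differences depended on the setting. With doxorubicin 1 of the 30 interferon-stimulated genes rose and 1 fell, with a median of -0.17, and without it 6 rose and none fell, with a median of 1.24. Of the 14 cardiac stress genes 1 fell with doxorubicin, with a median of -0.36, and 7 without it, with a median of -1.87. The stress genes that were lower numbered 3 with and 9 without doxorubicin by DESeq2's test and also without the 4 gene-poor libraries, but 5 with it and 4 without it in the fits of 6 libraries alone. The interferon-stimulated genes that were higher numbered 1 with and 11 without doxorubicin by DESeq2's test. They numbered 1 and 17 without the 4 gene-poor libraries, and 3 and 7 in the fits of 6 libraries alone. Those that were lower numbered 1, 4 and 10 with doxorubicin under these settings, and none without it. Beside these, all genes called higher without doxorubicin were 2.87%, 5.51% and 2.22%, and those called lower 2.30%, 5.45% and 1.93%. With doxorubicin the shares were 4.14%, 7.48% and 14.3% higher and 2.58%, 5.17% and 11.2% lower. Without the drug Myh7 was at -3.78 ± 0.57, Nppa at -2.60 ± 0.50 and Cxcl10, a chemokine induced by interferon, at 3.43 ± 0.52. The interferon count was 4 to 6 and the stress count 3 to 8 when any 1 of the 6 libraries without doxorubicin was left out: without replicate 1 or 2 of miR-222 they were 4 and 3, without replicate 3 of miR-222 5 and 5, without replicate 1 of miR-455 4 and 3, without replicate 2 of miR-455 6 and 8, and without replicate 3 of miR-455 5 and 3. In the fit of all 24 libraries no gene of either list passed edgeR's test of the difference between the contrasts, so these counts are given side by side. Some interferon-stimulated genes passed under other settings. Without the 4 gene-poor libraries edgeR called Rsad2 and Irf7 (adjusted p = 0.0351 and 0.0346). In the 12 libraries alone it called Rsad2 and Dhx58 (0.0455 and 0.0451). DESeq2's test called Rsad2, Irf7 and Mx2 (adjusted p = 0.000164, 0.000311 and 0.0481).

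**Figure D4:**
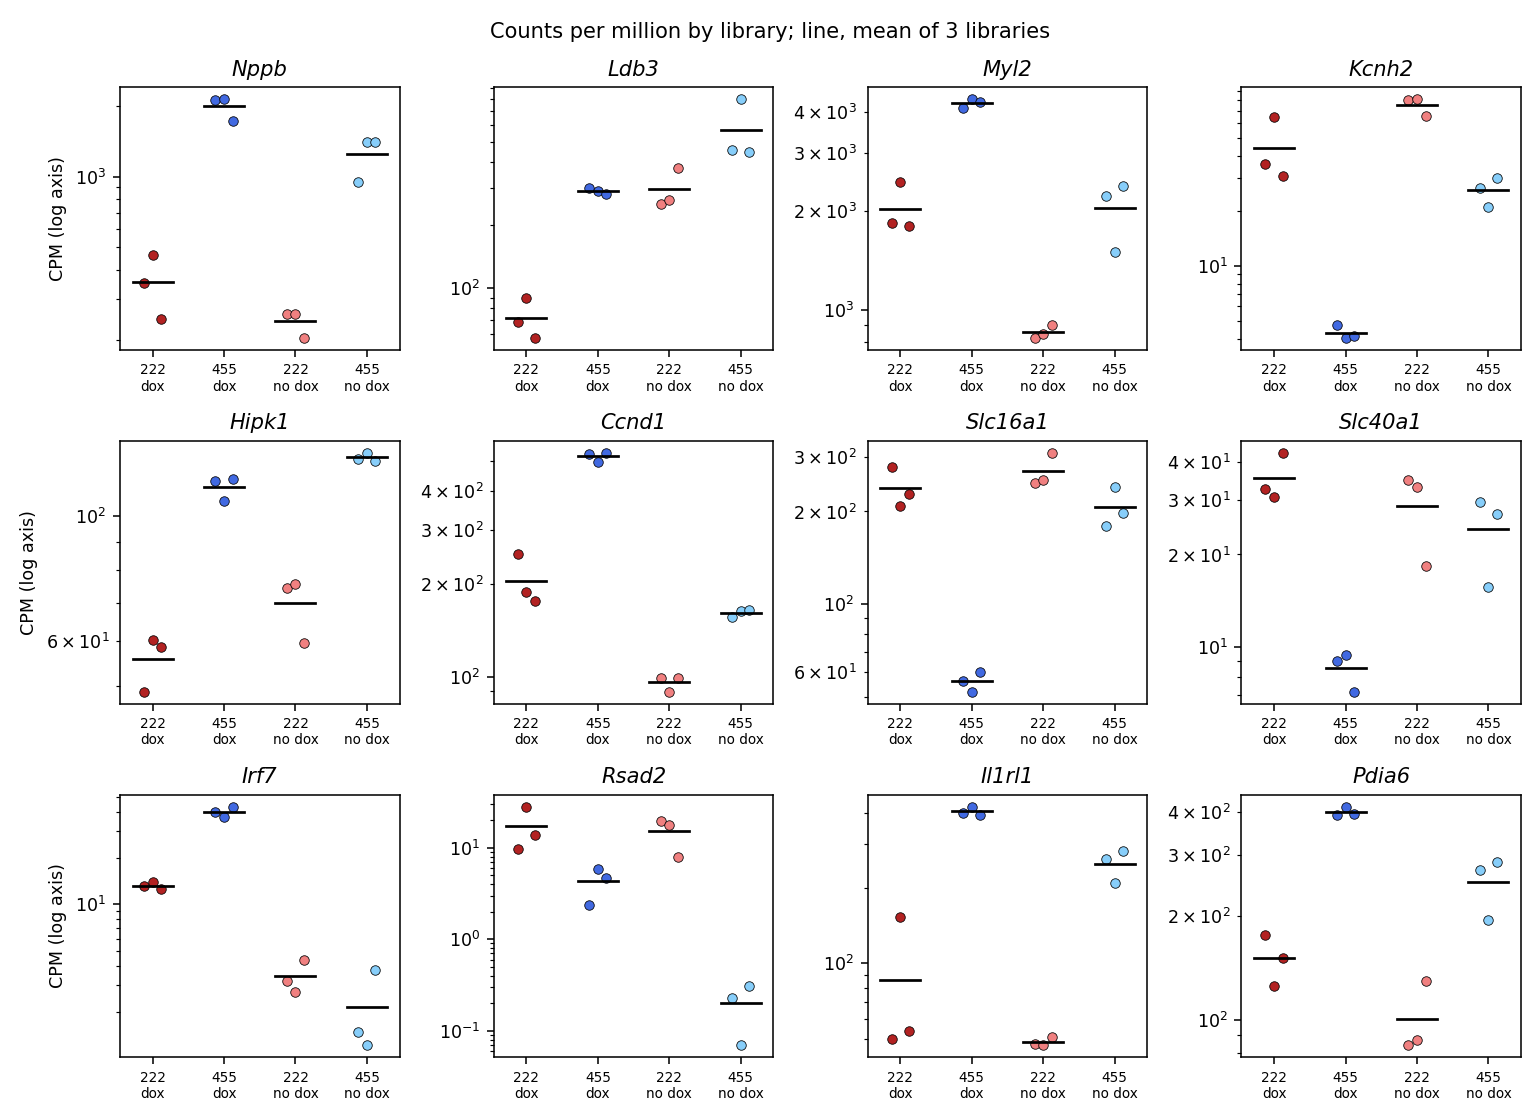
CPM of 12 genes on log axes, 1 point per library and a line at the mean of 3, with miR-222 left of miR-455, first with doxorubicin and then without. Nppb, Il1rl1 and Pdia6 have the same order in both pairs, Slc16a1 and Slc40a1 are low in the miR-455 libraries with doxorubicin alone, and Irf7 is lower with miR-222 with doxorubicin but not without it.

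The libraries with both mimics and doxorubicin and those with the control mimic and doxorubicin, which the contrast does not use, were set beside both groups. By mean level on the log2(CPM + 1) scale, the libraries with both mimics were nearer to miR-222 than to miR-455 for 217 of the 307 higher genes and for 157 of the 204 lower ones. For all genes tested this was 3414 of 6704 above 0 and 4429 of 7578 below. Without replicate 2 of both mimics, one of the 4 gene-poor libraries, the counts were 206 and 167. Flot2, with 22.3 to 36.1 CPM with miR-222 and 295 to 317 CPM with miR-455, averaged 49.7 CPM with both mimics, and Gna12 averaged 52.8 CPM. Igfbp5 averaged 68.0 CPM with both mimics, Slc40a1 39.7 CPM and Ccnd1 138 CPM, all on the miR-222 side. Kcnh2, at 7.34 CPM with both mimics, was on the miR-455 side, and Canx, at 1748 CPM, likewise. The libraries with both mimics received 5 nM of each, and whether wells with 1 mimic were brought to the same total is not stated.

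The control mimic libraries were nearer to miR-222 than to miR-455 for 179 of the 307 higher genes and for 37 of the 204 lower ones. Over all genes tested they were nearer to miR-222 for 2823 of 6704 above 0 and 3410 of 7578 below. Without control mimic replicate 1, the library with the fewest genes, the counts nearer to miR-222 were 168 and 35. Flot2, Gna12, Ackr4 and Irf7 are among the lower genes whose control level was on the miR-455 side. The higher genes were split, with Igfbp5 (mean 14.4 CPM in the control) on the miR-455 side and Cox6a1 (727 CPM) on the miR-222 side.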

How the data were processed

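PolyA RNA was sequenced in 24 libraries, 8 groups of 3. The deposited table gives the authors' expected counts for 21767 gene symbols; per the submitters' processing notes Salmon, DESeq2 and the rat build Rnor_6.0 were used, with versions not given in the sources used here. Values that were not whole (38406, 7.35%) were rounded, and 3087 symbols were at 0 in every library. Library totals were 17311949 to 25750309, which limits low genes; p-values cover the spread between libraries.

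Counts were tested in R 4.3.3 with edgeR 4.0.16: filterByExpr (14303 genes), TMM scaling, a means model of 8 groups over all 24 libraries, the quasi-likelihood F test and Benjamini-Hochberg adjustment per contrast, called under 0.05. The SE is the log2 fold change divided by the square root of F. CPM use TMM-scaled totals. The script was tested on simulated data. DESeq2 1.42.0 was an alternative.

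The groups follow the labels. The members, the 32 gene lists and the rule for named genes were chosen with earlier results of these data known. Under the rule the leading genes are the 10 called in each direction that changed most, have a symbol, reach a mean of 5 CPM where they are higher and do not overlap between groups. It adds from each list up to 4 genes by smallest p, the reported targets, and in every case Ei24, Hmbox1, Hipk1, Cdkn1b, Cdkn1a, Mdm2, Myh6, Myh7, Nppa and Nppb. Other members of the lists were named after their values were seen. Pseudogenes are those RefSeq names after the gene. Some genes are not reported here.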

Additional observations from a re-analysis of the deposited data

How the results depend on the processing

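The count of 511 genes was 506 with DESeq2 size factors, 558 with at least 1 CPM in 3 libraries, 420 with no filter and 511 without mitochondrially encoded transcripts. It was 912 with DESeq2's test, 3416 in a fit of only the 6 libraries, 1829 without the 4 gene-poor libraries, and 231 to 322 when 1 library was left out; the cause of these was not tested. The count of 0 for the difference between the contrasts was 42 with DESeq2's test, 87 in a fit of 12 libraries, 58 without the 4 gene-poor libraries, 0 to 1 when 1 library was left out, and 0 under the other settings. The difference in mitochondrial share was -5.07 to -3.03 percentage points when 1 library was left out. Of 142 named genes 50 were called, 25 of them in every fit without 1 library; Myh6 alone turned its sign, at -0.124 without replicate 2 of miR-222 and up to 0.445 in the other such fits, and was not called. Same-numbered libraries of the 2 groups did not deviate together (correlations -0.019, -0.0054 and 0.035). With 3 libraries a group, and the miR-455 libraries so close, this cannot settle whether the numbers pair them. With the replicate number as a block 415 genes were called, no gene for the difference, and 6 named genes lost their call. So did 4 with no filter and 1 (Pfkp) each with DESeq2 size factors, with at least 1 CPM in 3 libraries and without mitochondrially encoded transcripts. Named genes that gained a call numbered 13 with DESeq2's test, 64 in the fit of only the 6 libraries, 34 without the 4 gene-poor libraries and 1 (Nppa) without mitochondrially encoded transcripts. For the contrast without doxorubicin, the fits that left out each library and the other settings were chosen after seeing the data. Matches to the seeds in 3′ UTRs, also planned, were not run, since no UTR sequence was used here. Depth limits low genes such as Gdf10, and the deposited counts cannot tell transcripts of a gene apart.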
